A study of Mus musculus with 13 samples.

Results

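The regions described here are distal acetylated FOXL2 sites at which no SMAD2/3 peak was called. FOXL2 peaks of 4 libraries were merged wherever they overlapped by 1 bp or more. A merged region stayed in the set when it held a peak in all 4 lists, when every one of those peaks lay more than 1000 bp from a transcription start by the deposited distance, when it overlapped an H3K27ac region with a peak in both activin lists, and when no peak of any SMAD2/3 list touched it. Of 124781 merged FOXL2 regions, 7409 met this rule (5.94%). A total of 58444 regions had a peak in all 4 lists, 56456 of these were distal, and 11270 of those were acetylated. The rule removed the 3861 acetylated regions that held any SMAD2/3 peak. Members were chosen by the peak calls of all 12 libraries and by the deposited distances, so the presence of FOXL2, of H3K27ac with activin and the absence of SMAD2/3 are not findings.

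The cells were LβT2, an immortalised mouse pituitary line labelled as gonadotrope. They were stably transduced by lentivirus with FLAG-tagged mouse FOXL2 under doxycycline control, together with a constitutive GFP, and every sample received doxycycline for 48 h, the vehicle samples included. The FLAG antibody reads the induced protein and not the cells' own FOXL2. After 24 h of recovery, the induction and 2 h in 2% serum, cells received for 1 h either vehicle or activin A at 1 nM and were fixed in 1% formaldehyde. SMAD2/3, FLAG-FOXL2 and H3K27ac were each immunoprecipitated in 2 samples per treatment, and samples were pooled from 3 plates. The labels do not say whether the antibodies were used on the same cultures, or whether the 2 samples of a treatment were grown separately in time, so the spread between them may be technical. A Protein-A control was not analysed here.

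FOXL2 is a forkhead transcription factor, and in gonadotropes it is known for its part in the transcription of Fshb, the gene of the β subunit of follicle-stimulating hormone. Activin binds type II and type I receptor kinases, which phosphorylate SMAD2 and SMAD3, and the SMADs enter the nucleus with SMAD4 and bind DNA beside partner factors, FOXL2 among them. Acetylation of histone H3 at lysine 27 marks active enhancers and promoters, and distal regions that carry it together with a transcription factor are commonly taken as candidate enhancers.

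Sequence could be read for a few members only, those whose FOXL2 summit lies inside a RefSeq promoter window (GRCm38.p6, 250 bases before to 50 after a gene's start). These are members at starts other than the one the deposited distance refers to, so they are not typical of the distal set. Of the 7409 members, 127 overlapped such a window and 60 held the mean summit with 50 bp on either side wholly inside one. The forkhead core TGTTTAC, searched on both strands, occurred in 11 of these 60 windows (18.3%, 95% Wilson interval 10.6 to 29.9%) and in 1.22% of all stretches of the same length in the 32851 promoter windows. With TGTTTGC added, 16 of 60 held a match (26.7%), against 2.87% of the promoter stretches. The following 8 were picked from the 60 and hold matches more often than the 60 as a whole, so they are examples only. They are listed from the highest to the lowest mean FOXL2 rank (95.5 to 50.7), and other windows in this range are left out. Of the 8, Cdc42bpa and Myt1l hold neither form, and capitals mark forkhead matches in the rest.
Cdc42bpa, chr1:179960945-179961045, plus strand: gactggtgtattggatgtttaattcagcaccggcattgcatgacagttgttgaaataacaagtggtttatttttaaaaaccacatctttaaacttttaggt
Prkar1a, chr11:109649175-109649275, plus strand: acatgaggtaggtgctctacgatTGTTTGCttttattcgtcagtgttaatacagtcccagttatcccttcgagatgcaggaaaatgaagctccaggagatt
Btbd3, chr2:138278253-138278353, plus strand: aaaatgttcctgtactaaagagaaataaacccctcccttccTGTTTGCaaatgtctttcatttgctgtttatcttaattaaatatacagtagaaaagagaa
Myt1l, chr12:29534458-29534558, plus strand: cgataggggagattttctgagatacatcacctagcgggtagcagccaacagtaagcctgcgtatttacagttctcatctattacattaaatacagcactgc
Txnip, chr3:96557811-96557911, plus strand: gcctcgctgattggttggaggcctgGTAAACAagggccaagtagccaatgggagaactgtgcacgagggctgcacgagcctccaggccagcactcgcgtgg
Adipor2, chr6:119388855-119388955, plus strand: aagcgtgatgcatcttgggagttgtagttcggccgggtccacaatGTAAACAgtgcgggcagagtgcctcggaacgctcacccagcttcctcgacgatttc
Pot1a, chr6:25809247-25809347, plus strand: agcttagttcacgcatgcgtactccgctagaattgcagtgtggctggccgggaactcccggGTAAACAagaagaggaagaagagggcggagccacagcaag
Btbd8, chr5:107437714-107437814, plus strand: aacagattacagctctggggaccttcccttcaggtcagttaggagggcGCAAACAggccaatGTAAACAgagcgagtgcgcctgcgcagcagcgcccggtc

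The Btbd8 window carries both forms, 1 and 15 bp from the summit. The match at Adipor2, an adiponectin receptor gene, was centred 2 bp before the summit, and the one at Btbd3 6 bp before it. The Cdc42bpa window had the highest mean FOXL2 rank of the 60, 95.5, with neither form in its window. A match is a string of letters and not a bound site. Among the 285 windows of regions with a FOXL2 peak in all 4 lists, 36 held the core (12.6%, Wilson 9.27 to 17.0%). Among the 35 windows of distal regions without H3K27ac 2 did (5.71%, 1.58 to 18.6%). With TGTTTGC added, 49 of the 285 (17.2%) and 7 of the 35 (20.0%, 10.0 to 35.9%) held a match. The interval of the 35 is wide and includes the 26.7% of the members. CAGAC, the SMAD box, occurred in 9 of the 60 member windows (15.0%), in 48 of the 285 (16.8%) and in 20.0% of promoter stretches. TAATCC, a letter string of bicoid-type homeodomain factors such as PITX1, occurred in 5 of the 60 (8.33%, Wilson 3.61 to 18.1%). It occurred in 12 of the 285 (4.21%), a share inside that interval, and in 2.44% of promoter stretches. The 60 windows had a GC content of 49.9%.

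The FOXL2 lists held 83834 to 97701 peaks, the H3K27ac lists 38995 to 41763, the activin SMAD2/3 lists 7784 and 5970, and the vehicle SMAD2/3 lists 605 and 144. Read depth is unknown, since peak lists do not carry it. The gonadotrope label was checked by an H3K27ac peak within 1 kb of a gene's start. In all 4 libraries 13 of 15 gonadotrope markers had one, among them Cga, Lhb, Gnrhr, Nr5a1, Pitx1 and Foxl2. Fshb had none in any library. Of 10 markers of other pituitary lineages only Crhr1 had one in all 4, and Neurod1 had one in every library but activin 2. Prl, Tshb, Pou1f1, Ghrhr, Pomc and Pax7 had none. Of the 5 endothelial markers Cdh5 had one, and no stem cell, fibroblast or blood marker had one in all 4. A start could not be placed for genes that no peak names as its nearest, among them 3, 4 and 3 of the 5 genes in each of these last lists. The same held for Lhx3, for Gh and Tbx19 of the other pituitary lineages, and for the endothelial Kdr and Emcn.

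FOXL2 occupancy at the members was of middle strength within the lists. The percentile rank of a region is the rank of its strongest peak by the authors' −log10 q among all peaks of its own list, with 100 for the strongest. The median rank of the 7409 members was 66.3 and 69.6 under vehicle and 64.5 and 65.7 under activin. Both activin medians lay below both vehicle medians. The vehicle mean was 68.0 ± 2.30 and the activin mean 65.1 ± 0.840 (SD, n = 2 each), and activin minus vehicle was -2.91 percentile points. Without the second vehicle library the difference was -0.61, so most of its size rested on that library. Ranked only among the 58444 regions with a peak in all 4 lists, which takes out the unequal list lengths, the difference was -7.26.

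The deposited fold enrichment, which is the authors' value over their own background, had medians of 8.29 and 7.73 under vehicle and 7.46 and 7.46 under activin at the members. Over all 58444 regions in all 4 lists the median rank was 65.7 and 64.5 under vehicle and 68.1 and 67.0 under activin. The activin lists are longer, which by itself can place regions shared by all 4 lists higher in them. This was not tested, and a change in binding cannot be read from the order. A rank is relative: it moves with the other peaks of the list, and it does not measure absolute occupancy.

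Acetylated distal regions that met the same rule but held SMAD2/3 in both activin lists (2818 regions) ranked higher than the members in every library. Their medians were 81.1, 83.7, 88.2 and 88.5, in the order vehicle 1, vehicle 2, activin 1, activin 2. The members lay 14.8 and 14.1 points below them with vehicle and 23.8 and 22.8 points below with activin. The gap thus differed by -8.89 points between treatments, more than the spread between replicates (SD 0.501 with vehicle and 0.658 with activin). Ranked among regions in all 4 lists it was -13.9. Exact permutation of the treatment labels (two-sided, 6 arrangements) gave p = 0.33, the smallest value that 2 against 2 libraries can give. This design therefore cannot reach 0.05. Both groups were also chosen by peak calls in these FOXL2 lists, so the gap is a description.

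Distal regions in all 4 FOXL2 lists that no H3K27ac peak touched (39484 regions) had median ranks of 63.0, 60.0, 65.8 and 63.9. The members were above them by 3.34 and 9.57 points with vehicle, were -1.36 points from them in the first activin library, and were above by 1.77 points in the second. The gap differed between the vehicle replicates about as much as between treatments, and its sign turned when peaks were ranked by fold instead of q, with a mean gap of -5.96 points. No order of FOXL2 strength between acetylated members and non-acetylated sites can therefore be given.

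**Figure D1:**
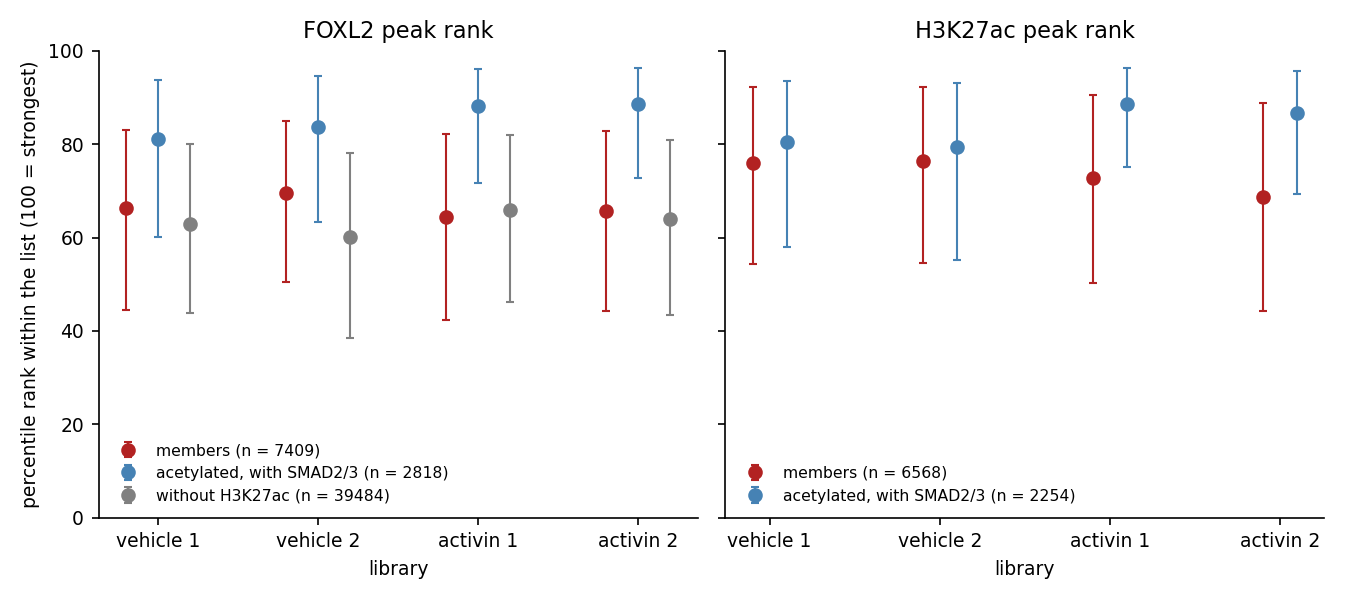
Median percentile rank per library (points) with the range from the lower to the upper quartile of regions (bars). Left, FOXL2 peaks. Right, the strongest peak of the H3K27ac region that each site overlaps, which need not lie at the site itself (sites with H3K27ac in all 4 lists). The members sit between 64.5 and 69.6 for FOXL2 in all 4 libraries, while sites with SMAD2/3 reach 88.2 and 88.5 with activin.

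Single members differed in direction. Of the 7409 members, 1569 (21.2%, Wilson 20.3 to 22.1%) had a FOXL2 rank higher in both activin than in both vehicle libraries, beside 29.9% of all regions in all 4 lists. A further 2836 members (38.3%, 37.2 to 39.4%) ranked higher in both vehicle libraries, beside 28.1%. For the remaining members the ranks of the treatments overlapped. Sites with SMAD2/3 showed the opposite balance, 48.6% higher with activin and 22.9% higher with vehicle. The Wilson intervals cover counting error only, and neighbouring regions share libraries, so the shares describe these 4 libraries.

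H3K27ac at the members leaned the same way. It was compared at the 6568 members whose H3K27ac region had a peak in all 4 H3K27ac lists, and a region's value is that of its strongest H3K27ac peak. The median H3K27ac rank was 75.9 and 76.3 under vehicle and 72.8 and 68.8 under activin. Both activin libraries lay below both vehicle libraries, and the means of 76.1 ± 0.272 and 70.8 ± 2.83 (SD, n = 2 each) differed by -5.36 points. With −log10 q of at least 5 the difference was -2.51.

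At sites with SMAD2/3 the median H3K27ac rank was 80.4 and 79.4 under vehicle and 88.6 and 86.6 under activin. The members were thus 4.47 and 3.10 points below these sites with vehicle, and 15.8 and 17.9 points below them with activin. This difference of -13.1 points between treatments exceeded the replicate SDs of 0.972 and 1.43. The same exact permutation gave p = 0.33, again its minimum. Both groups were also chosen by peak calls in these H3K27ac lists, so the difference is a description. Its size depended on the peaks used: it was -6.65 with −log10 q of at least 5 and -20.0 when ranked among regions in all 4 lists.

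Counted once per H3K27ac region, 5137 regions carried the 6568 members. H3K27ac ranked higher in both activin libraries in 1229 of them (23.9%), beside 26.4% of all 24356 H3K27ac regions in all 4 lists. It ranked higher in both vehicle libraries in 2274 (44.3%), beside 31.2%. Where FOXL2 and SMAD2/3 were both present the shares were 60.1% and 19.0%.

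Acetylation was mostly present with vehicle too, at the members as over all FOXL2 regions on activin H3K27ac. No vehicle H3K27ac peak was required of a member, although vehicle peaks helped to draw the merged H3K27ac regions. The vehicle lists had a peak at the H3K27ac region of 91.2% and 90.3% of the members (90.7 ± 0.659%, SD, n = 2). With H3K27ac regions merged over the activin lists alone there were 6837 members, and the mean share was 89.96%. The same share was 82.6 ± 0.979% at sites with SMAD2/3 and 88.5 ± 0.761% over all regions in the 4 FOXL2 lists that overlap an activin H3K27ac region. Of the members, 6568 (88.6%) lay on H3K27ac called in both vehicle lists, 307 in 1 of them, and 534 (7.21%) in neither. An H3K27ac peak of every list touched the FOXL2 region itself in 5189 members (70.0%), and in 388 (5.24%) no activin H3K27ac peak did, so that these met the rule only through the merged H3K27ac region. The summit of the FOXL2 peak was covered by H3K27ac in 67.8% and 66.1% of members under vehicle and in 67.6% and 56.7% under activin. The second activin H3K27ac list, which is the shortest and has the narrowest peaks, was the low one.

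The 534 members with no vehicle H3K27ac peak stood apart in FOXL2. Their median FOXL2 rank was 66.4 and 67.7 under vehicle and 80.6 and 80.4 under activin, with no overlap between treatments. Of the 534, 334 (62.5%, Wilson 58.4 to 66.5%) ranked higher in both activin libraries and 42 (7.87%) in both vehicle libraries. Members with H3K27ac in 1 vehicle list lay between, at 39.7% and 19.9%.

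The 6568 members acetylated in both vehicle lists had medians of 66.1 and 69.7 under vehicle and 62.5 and 63.6 under activin. In 16.9% of them FOXL2 ranked higher with activin and in 41.6% with vehicle. The 534 were no closer to SMAD2/3 than members as a whole, with a median distance of 38.0 kb to the nearest SMAD2/3 region called in both activin lists, against 35.8 kb. Their H3K27ac regions were narrow, with a median of 725.5 bp against 3026 bp for those acetylated in both vehicle lists. The rule required H3K27ac with activin, so sites with it under vehicle only are not members and the mirror case cannot be read from this set. This split was chosen after its values were seen.

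**Figure D2:**
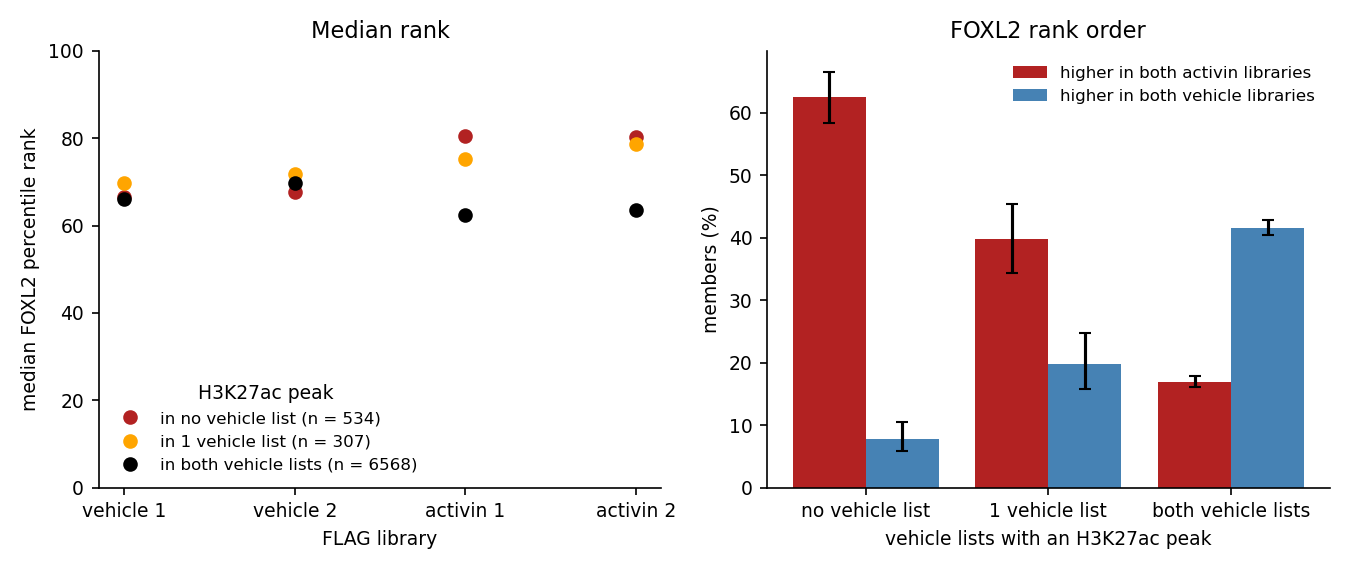
Left, median FOXL2 percentile rank in each FLAG library for members with an H3K27ac peak in no, 1 or both vehicle lists. Right, share of members whose FOXL2 rank was higher in both activin or in both vehicle libraries, with 95% Wilson intervals: 62.5% of the 534 members without vehicle H3K27ac ranked higher with activin, against 16.9% of those with it in both lists.

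Both signals varied with the distance to SMAD2/3. By the rule no member touches a SMAD2/3 peak, but the nearest SMAD2/3 region called in both activin lists lay within 1 kb of 588 members and more than 100 kb away from 2246. Within 1 kb the median FOXL2 rank was 59.2 and 62.5 under vehicle and 65.8 and 65.6 under activin. Beyond 100 kb it was 66.3 and 70.8 under vehicle and 62.0 and 63.9 under activin. The order of the treatments was opposite in these 2 groups of members, without overlap in either.

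FOXL2 ranked higher in both activin libraries in 31.1% of members within 1 kb, 23.7% at 1 to 5 kb, 21.8% at 5 to 20 kb, 19.2% at 20 to 100 kb and 19.1% beyond. The share higher in both vehicle libraries went from 25% through 31.9%, 37.9% and 41.0% to 42.0%. Members within 1 kb were thus close to the background of 29.9% and 28.1%, and those beyond 20 kb were farthest from it.

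For H3K27ac the shares spanned a wider range. Within 1 kb the median H3K27ac rank was 81.5 and 81.7 under vehicle and 88.8 and 86.8 under activin, and H3K27ac ranked higher in both activin libraries at 60.6% of the 523 members with H3K27ac in all 4 lists. This share, on the same basis, was 42.8% at 1 to 5 kb, 19.6% at 5 to 20 kb, 16.7% at 20 to 100 kb and 13.8% beyond. Beyond 100 kb the medians were 72.4 and 72.0 under vehicle and 63.5 and 59.3 under activin, and 54.4% ranked higher in both vehicle libraries. The distance classes were set with the data in view and carry no test.

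**Figure D3:**
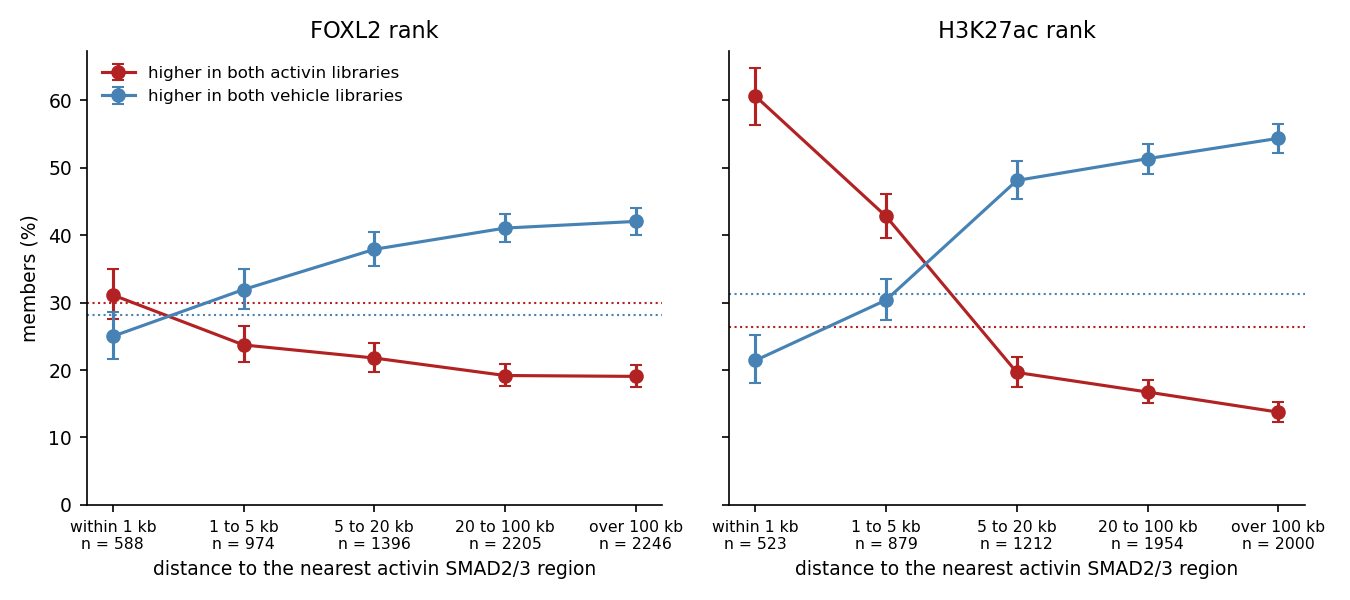
Share of members whose FOXL2 rank (left) or H3K27ac rank (right) was higher in both activin or in both vehicle libraries, by distance to the nearest SMAD2/3 region called in both activin lists. Bars are 95% Wilson intervals, dotted lines the shares over all FOXL2 regions in all 4 lists or all H3K27ac regions in all 4 lists. Activin-higher H3K27ac goes from 60.6% within 1 kb to 13.8% beyond 100 kb.

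Proximity and a shared acetylated region overlapped. SMAD2/3 here means a SMAD2/3 region called in both activin lists. H3K27ac regions counted as without it may still hold other SMAD2/3 peaks. On H3K27ac regions that also held SMAD2/3 elsewhere lay 1280 members. In the 1233 of them with H3K27ac in all 4 lists, H3K27ac ranked higher with activin in 50.9% and with vehicle in 28.9%. The other 6129 members lay on H3K27ac regions without it, and in the 5335 with H3K27ac in all 4 lists the shares were 17.0% and 50.5%. Within 5 kb of SMAD2/3, 392 members were on a separate H3K27ac region without SMAD2/3 so defined. Of the 279 of them with H3K27ac in all 4 lists, 31.2% ranked higher with activin and 33.3% with vehicle. Another 1170 within 5 kb shared their H3K27ac region with SMAD2/3, and in the 1123 with H3K27ac in all 4 lists the shares were 54.0% and 25.5%. The FOXL2 shares of the 392 and the 1170 were nearer to each other, 28.1% and 26.0% higher with activin and 29.6% and 29.2% higher with vehicle. H3K27ac regions that hold SMAD2/3 were also wider, with a median over members of 5939 bp against 2287 bp, and a strongest peak is taken over more sequence there.

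FOXL2 and H3K27ac were ordered alike between treatments more often than oppositely. Among 2733 members with H3K27ac in all 4 lists whose FOXL2 ranked higher with vehicle, H3K27ac ranked higher with vehicle in 57.9% and with activin in 14.5%. Among 1113 members whose FOXL2 ranked higher with activin, the H3K27ac shares were 33.0% and 36.1%. Both targets leaned toward vehicle over all 6568 members, H3K27ac at 46.5% against 23.3% and FOXL2 at 41.6% against 16.9%. How much of the shared order comes with this lean was not tested. Across the 6568 members the rank differences of the 2 targets had a Spearman correlation of 0.26, a description only, since members share 5137 H3K27ac regions and the same libraries.

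The strongest members ranked at the top of every list. A region of 756 bp in an intron of Zcrb1, a gene of a minor spliceosome protein (chr15:93388926-93389681), had FOXL2 ranks of 99.99, 99.98, 99.98 and 99.96 and authors' fold enrichments of 73.8, 61.6, 64.9 and 56.6. Its H3K27ac was modest, with ranks of 35.6, 48.6, 15.7 and 53.4. An intron of Cct7, a chaperonin subunit gene, held a member (chr6:85456988-85457808) with FOXL2 ranks from 99.6 to 99.9 and H3K27ac ranks of 42.8, 41.6, 13.9 and 0.113.

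Further members among the 10 with the highest mean rank were at or near Gm14114, Khdrbs2, Wdr7, Sdc4, Gm14034, Dis3l2 and Upf2. H3K27ac ranked lower at the strongest FOXL2 members than at the weakest. This was read at members with H3K27ac in all 4 lists. Of the 928 members with a mean FOXL2 rank over 90, the 767 such members had median H3K27ac ranks of 67.5, 68.1, 61.9 and 57.6. Of the 416 members with a mean rank up to 25, the 389 such members had 84.3, 84.2, 80.5 and 78.5. The order held in all 4 libraries. H3K27ac regions were wider at the weak members, with medians of 2803.5 bp over all 416 and 2183 bp over all 928.

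The weakest member, in an intron of Epb4.1l4a on chromosome 18, had FOXL2 ranks of 0.741, 8.10, 0.563 and 3.88 on an H3K27ac region ranked 80.8, 80.5, 91.2 and 93.9. Members near Tango6, Gm37070 and H2afy and in Tenm4 followed, with mean ranks from 3.86 to 5.45. Near the bottom of a list, ranks varied between replicates by as much as between treatments.

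The member with the largest separation toward activin lay in an intron of Rbfox1, a neuronal splicing regulator (chr16:7301066-7302064). Its FOXL2 ranks were 3.12 and 9.05 under vehicle and 79.4 and 81.5 under activin, with folds of 2.54, 2.60, 7.68 and 7.44. H3K27ac there ranked 2.48 and 1.67 under vehicle and 20.0 and 10.4 under activin. The nearest SMAD2/3 region called in both activin lists was 277 kb away. In an intron of Itgbl1 (chr14:123856479-123856818) the FOXL2 ranks were 8.66, 14.8, 78.7 and 74.8, on H3K27ac that ranked 97.6, 97.6, 94.9 and 93.2.

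A member in an intron of Nf2, the merlin tumour suppressor (chr11:4817103-4817688), had FOXL2 ranks of 11.3, 3.93, 65.7 and 66.3 and H3K27ac ranks of 29.2, 21.0, 57.9 and 56.3. The other members of this kind lay in an exon of Ppp1r1c and near Gm23061.

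Toward vehicle, the largest separation was at an intergenic member whose nearest gene is Gm10247 (chr16:9135248-9135913). It had FOXL2 ranks of 67.8 and 74.9 under vehicle and 4.85 and 11.3 under activin, and H3K27ac ranks of 91.7, 87.7, 57.3 and 69.2. At the transcript end of Hiat1 (chr3:116647369-116647804) the FOXL2 ranks were 72.3, 70.6, 14.5 and 9.67 and the H3K27ac ranks 67.3, 69.5, 37.9 and 34.6. At both sites FOXL2 and H3K27ac were lower in both activin libraries. The remaining members named by this rule were at or near Gm38026, Gm22542 and RP24-389G6.1. All 10 were picked for their separation, so these values are a description.

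Most members were intronic. The deposited class was intron for 4371 (59.0%), intergenic for 2323 (31.4%), transcript end for 262 (3.54%), exon for 195 (2.63%) and promoter for 258 (3.48%). The promoter class goes against the name distal: the deposited distance and the deposited class refer to different starts there, and 275 members had this class in at least 1 library. These 275 had lower FOXL2 medians, 48.9, 60.1, 51.4 and 57.7, and leaving them out moved the share ranked higher with activin only to 21.3%. The median distance to the nearest start was 19.0 kb, against 22.9 kb for sites with SMAD2/3 and 26.0 kb for non-acetylated ones. The smallest distances inside the limit were 1001, 1001 and 1002 bp, and those of otherwise fitting regions just outside it were 997, 998 and 999 bp.

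The members just inside were at Klhl24, Ncoa5 and Frat1, with mean FOXL2 ranks of 93.4, 41.8 and 82.1, and those just outside at Rpusd3, Svip and Slco4a1, with 88.2, 30.6 and 77.1. Members had a median width of 478 bp, between non-acetylated sites (440 bp) and sites with SMAD2/3 (633.5 bp). One peak in each of the 4 lists made up 6703 members (90.5%), and the 4 summits of a member spanned a median of 48 bp.

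Acetylated regions differed in how many members they carried. The 7409 members lay on 5928 H3K27ac regions, 4821 of which held 1 member, 870 held 2 and 26 held 5 or more. These regions had a median width of 2314.5 bp against 1441 bp for all H3K27ac regions called in both activin lists. They were picked by overlap with a FOXL2 region, which a wider region can meet more easily, and this was not tested. The fullest was a region of 51.2 kb on chromosome 3 near Gm33819 (chr3:15193808-15245037), with 15 members and 1 SMAD2/3 region. FOXL2 ranked higher with vehicle at 8 of the 15 and higher with activin at 1. Its H3K27ac ranked 99.8, 99.8, 99.0 and 98.5, and in both activin lists it was called as 2 pieces around a gap near the centre.

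A region of 30.4 kb inside Rfx3, a regulator of ciliary genes (chr19:27932732-27963094), held 14 members and 3 SMAD2/3 regions, and FOXL2 ranked higher with activin at 6 members and with vehicle at 3. Inside Foxp2, a forkhead factor gene, 9 members shared 21.8 kb (chr6:15182269-15204099) with 1 SMAD2/3 region. FOXL2 ranked higher with activin at 6 of the 9 and with vehicle at 1. Around Isl1, a LIM homeodomain gene of gonadotropes, 8 members shared 24.6 kb (chr13:116289758-116314352) with 3 SMAD2/3 regions. FOXL2 ranked higher with activin at 1 of the 8 and with vehicle at 3. Pdlim5, also with 8 members, had no SMAD2/3 region called in both activin lists in its acetylated region. Its H3K27ac ranks were 87.5, 83.5, 62.0 and 59.4. A region inside Foxp1, again with 8 members and no such SMAD2/3 region, had H3K27ac ranks of 97.3, 97.6, 96.3 and 96.3. The direction of FOXL2 thus varied among members of 1 acetylated region. Over all 7409 members the shares were 21.2% higher with activin and 38.3% higher with vehicle.

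**Figure D4:**
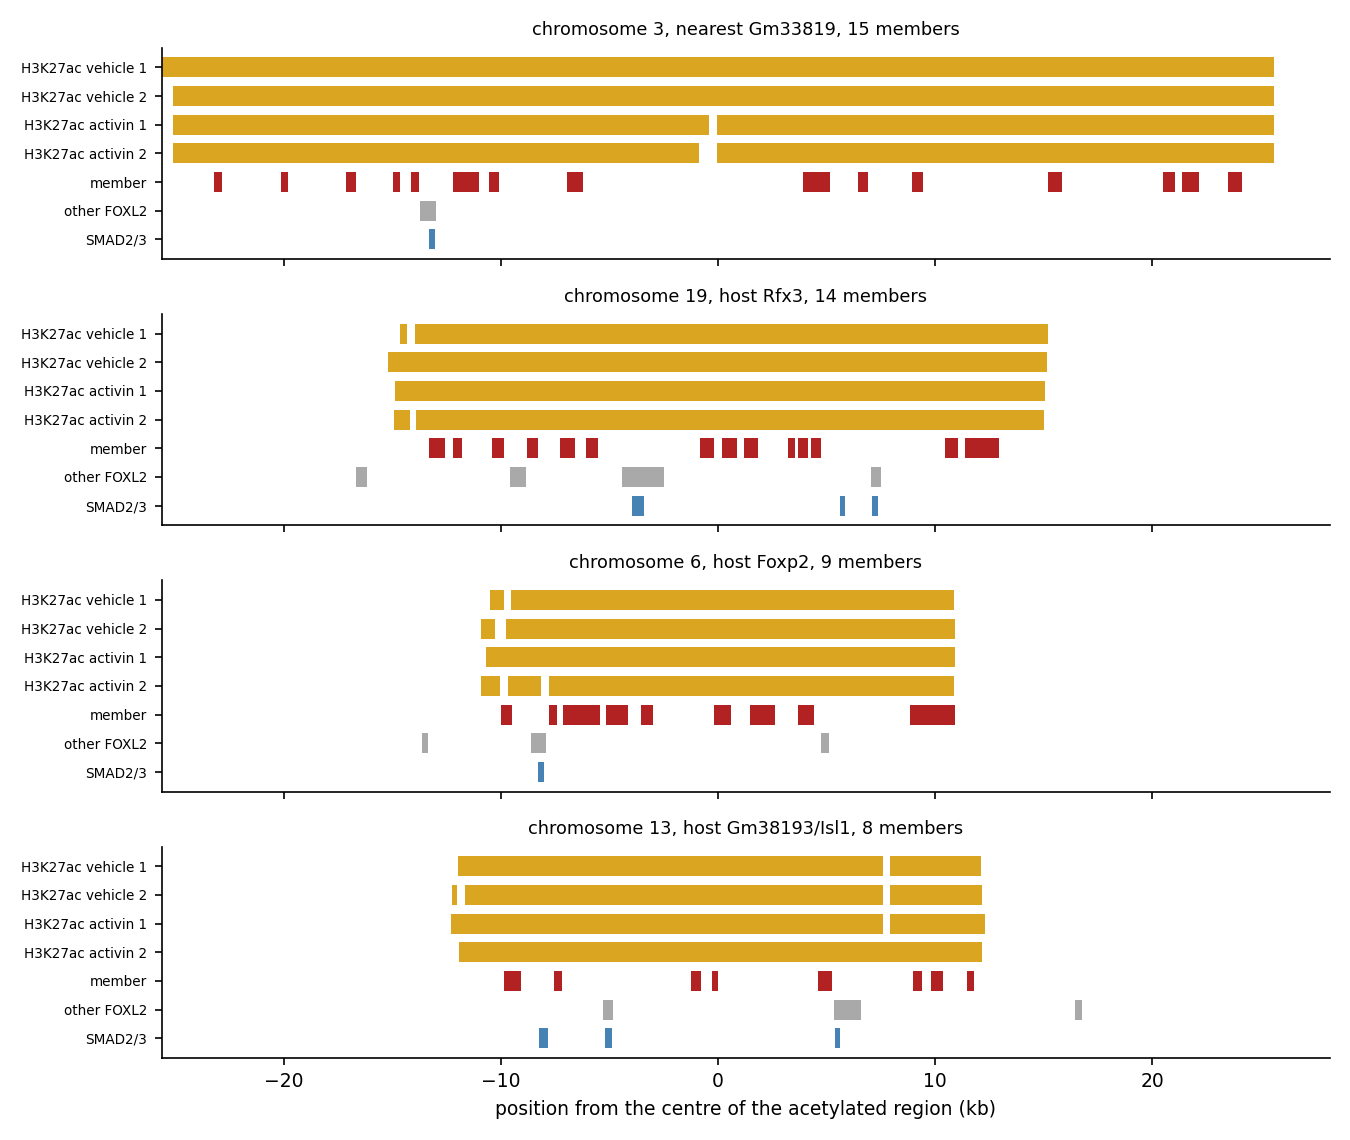
Maps of the 4 acetylated regions with the most members, in kb from the centre of each region. Rows are the H3K27ac peaks of each library, the members, other FOXL2 regions in all 4 lists and SMAD2/3 regions in both activin lists. Members, 15, 14, 9 and 8 from top to bottom, lie spread along each region.

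The members were nearest to 4134 distinct genes, and 16.8% of all genes nearest to a FOXL2 region had at least 1, or 17.9% of the protein-coding ones. Counted by the gene whose body holds the member, Rfx3 held 23, Cntn4, a neuronal adhesion molecule, 22, Foxp2 19 and Dpp6, an auxiliary subunit of potassium channels, 18. Bckdhb, Cacnb2 and Ptprd held 17 each. In Rorb, a nuclear receptor gene with 16 members over 71.5 kb, FOXL2 ranked higher with vehicle at 11 and with activin at 1. In Kcnma1, the BK potassium channel gene, also with 16, the counts were 9 and 1. In Rfx3 they were 5 and 10, in Cacnb2 4 and 5, and in Dpp6 and Bckdhb 5 and 4. Over all members 38.3% ranked higher with vehicle and 21.2% with activin, beside 28.1% and 29.9% of all regions in all 4 FOXL2 lists.

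Gonadotrope genes were represented unevenly. Of the 4 genes of gonadotropin subunits and the GnRH receptor, 3 were nearest to some FOXL2 region and Cga alone to a member. Cga encodes the α subunit shared by the glycoprotein hormones. An intronic Cga member 8.19 kb from the start (chr4:34901732-34902230) had FOXL2 ranks of 89.8, 95.3, 91.8 and 92.2 on an H3K27ac region of 22.4 kb that ranked 99.3 or higher in all 4 libraries. A weaker one 6.45 kb from the start ranked 2.40 and 66.2 under vehicle and 18.8 and 42.2 under activin, so its replicates differed more than its treatments.

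Among gonadotrope transcription factor genes, 7 of the 16 with a FOXL2 region had a member (43.8%), among them Isl1, Otx1, Foxl2, Pitx1, Gata2 and Hesx1. An intronic member at Isl1 (chr13:116300796-116301294) ranked 80.4, 86.8, 83.3 and 85.3. Otx1, a bicoid-type homeodomain gene, had a distant member 95 kb upstream of its start within Ehbp1 (chr11:22096418-22097032) with FOXL2 ranks of 96.5, 97.5, 97.9 and 97.6. Its H3K27ac ranked 41.6 and 50.3 under vehicle and 80.8 and 63.6 under activin, without overlap. Nr5a1, Egr1, Lhx3 and Nr4a1 had none.

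Of the activin, TGF-β and BMP pathway genes, 14 of the 35 with a FOXL2 region had a member (40.0%). Bmpr1b, a type I BMP receptor gene, was nearest to 6 and, with those inside it, had 7. FOXL2 ranked higher with vehicle at 5 of the 7 and with activin at none, beside 38.3% and 21.2% of all members. The strongest of them (chr3:142031654-142032233) had FOXL2 ranks of 95.6, 95.6, 88.2 and 85.3 and H3K27ac ranks of 94.4, 92.4, 81.5 and 75.1. A member 17.1 kb upstream of Id1, a BMP target that encodes an inhibitor of bHLH factors (chr2:152718947-152719430), had FOXL2 ranks of 91.8, 93.5, 87.3 and 89.3 and H3K27ac ranks of 86.2, 88.3, 49.2 and 38.9. Both targets ranked lower in both activin libraries at both sites.

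Of the receptor genes for activin, Acvr1b and Acvr2b each had a member nearest to them, and of the SMADs Smad2, Smad3, Smad4 and Smad7 did. Smad7, the inhibitory SMAD, had 1, with a mean FOXL2 rank of 80.6, ranked higher with vehicle. Fst, Inha, Inhba, Skil and Pmepa1 had none.

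Secretory granule genes had a member in 5 of 8 cases (62.5%): Scg2, Chga, Chgb, Scg3 and Scg5, which encode granins and their partners. A member 10.2 kb from the start of Scg2 (chr1:79429528-79430066) ranked 89.7, 81.6, 87.8 and 83.1 for FOXL2 and 55.3, 62.3, 55.7 and 58.4 for H3K27ac, with the treatments overlapping in both. Exocytosis genes had one in 4 of 13, with Rims2, a scaffold of vesicle release sites, at FOXL2 ranks of 98.1, 93.5, 97.3 and 97.3 (chr15:39199517-39200016). Ion channel genes had one in 5 of 19.

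Forkhead genes had one in 6 of 10 (60.0%), and Foxp2 alone was nearest to 18 members. The strongest of those (chr6:15281903-15283202) ranked 99.4, 99.8, 98.5 and 98.8 for FOXL2 and 80.7, 81.5, 67.4 and 39.1 for H3K27ac. Of the AP-1 genes Fos alone of 8 had members, 19.2 and 2.26 kb upstream of its start, and the farther one ranked 79.7, 92.9, 90.5 and 94.4. Of the Wnt pathway genes 5 of 13 had one, among them Fzd4 and Lrp6. The shares of these lists stand beside 17.9% of protein-coding genes, but listed genes can differ from others in size and in the number of FOXL2 regions near them, which was not tested.

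**Figure D5:**
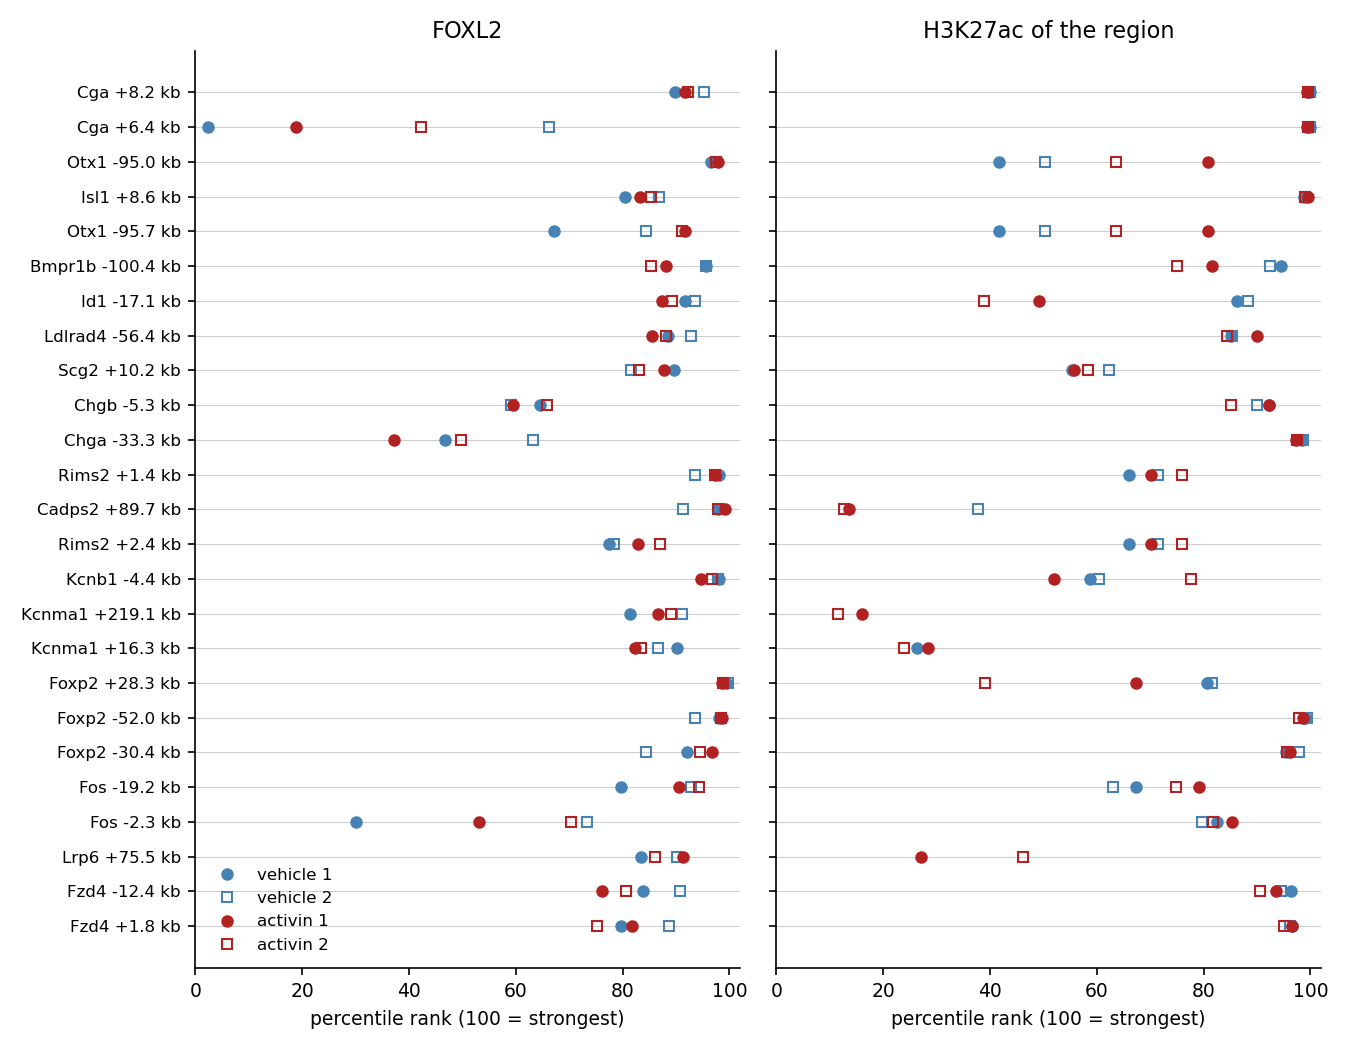
FOXL2 rank (left) and rank of the overlapping H3K27ac region (right) in each library for up to 3 members with the highest mean FOXL2 rank per gene list, labelled by nearest gene and signed distance from its start (minus is upstream). A missing H3K27ac point means no peak in that list, as in both vehicle lists at Lrp6, and the treatments overlap for most FOXL2 rows, such as Scg2 and Chgb.

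No member had Fshb as its nearest gene. Within 500 kb of the Fshb start, which the deposited distances place at position 107059656 on the minus strand of chromosome 2, lay 4 members, from 190.5 to 344 kb downstream and all within or beside Mpped2. The one nearest to Fshb (chr2:106868770-106869464) had FOXL2 ranks of 99.1, 99.4, 98.4 and 98.7. H3K27ac there ranked 68.4 and 59.3 under vehicle and 87.5 and 84.9 under activin, without overlap. The nearest SMAD2/3 region called in both activin lists was 1.32 kb away. A member in an Mpped2 intron (chr2:106745838-106746370) had FOXL2 ranks of 60.9 and 35.7 under vehicle and 86.2 and 84.8 under activin. Another on the same acetylated region ranked 62.4, 73.5, 48.6 and 58.8, lower in both activin libraries, so direction differed between neighbouring members.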

How the data were processed

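Peak lists of 12 ChIP-seq libraries were used, 2 per treatment for each of 3 targets. The authors used Bowtie2, MACS2 and HOMER with GRCm38/mm10, per the submitters' processing notes, whose roles and versions are not given in the sources used here. Peaks were called per library, per the file headers and peak names. The deposited columns are a fold enrichment, a linear ratio made by the authors, then −log10 p, −log10 q and a score. The deposited annotation tables give class, nearest gene and distance in bp. Coordinates are the deposited ones, counted from 1.

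Regions were merged at 1 bp. Peaks were ranked by −log10 q within their own list, since lists differ in length and depth is unknown. Treatments were compared by median rank per library. The gaps to sites with SMAD2/3 were also put through exact permutation of the 6 label arrangements, though the rule used peak calls of the same lists. No test was run over regions, which are not replicates. The members, gene lists and distance classes were chosen with earlier results of these data known. Members named in the text are the 10 highest and 5 lowest by mean FOXL2 rank, the 5 with the largest separation in each direction, the 3 either side of the distance limit, up to 3 per gene list and those within 500 kb of Fshb; a few others were named after their values were seen. Some members and genes that the rule names are not reported here. By the deposited distance, which refers to the centre of broad peaks, only 2 of 15 gonadotrope markers had H3K27ac at the start in all 4 lists, so starts were derived from centre and distance, a check added after seeing the data. No genome was used, so motifs were searched in RefSeq promoter windows (GRCm38.p6) only. The merging and the rank counts were tested on simulated data. Shares have 95% Wilson intervals. Python 3.11.15, pandas 2.3.3 and scipy 1.17.1 were used. The alternatives tried were overlap, distance, SMAD2/3 margin, −log10 q of at least 5, other merging of H3K27ac, rank by fold, replicate blocks, other rank populations, removal of the promoter class and each library left out.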

Additional observations from a re-analysis of the deposited data

Results flagged for a closer look

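The FOXL2 rank of the members was lower in both activin libraries and that of acetylated distal sites with SMAD2/3 was higher in both, a difference of -8.89 percentile points between the 2 kinds of site (exact two-sided permutation p = 0.33, the smallest that 2 against 2 libraries can give). H3K27ac showed the same opposition, with a difference of -13.1 points and the same p. Both kinds of site were chosen by peak calls in these lists, so the differences are descriptions. Groups of 2 libraries are too small for a check of single outlying libraries.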

How the results depend on the processing

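The count of 7409 members became 3378 with −log10 q of at least 5, and ran from 7245 to 8834 when each library was left out in turn. FOXL2 rank, activin minus vehicle, was -7.26 among regions in all 4 lists, and from -4.42 to -0.61 with a library left out. The share of members ranked higher with activin (21.2%) was 18.7% with 50% of the region on H3K27ac, 18.2% with the stricter q, 19.6% by fold and 17.8% among regions in all 4 lists, and from 21.3 to 35.4% with a library left out, where fewer libraries must be ordered. The share ranked higher with vehicle (38.3%) was 40.1% with 50% overlap, 43.3% among regions in all 4 lists, and from 37.3 to 55.3% with a library left out. The gap to non-acetylated sites (3.33 points) reversed to -1.21 with the stricter q and to -5.96 by fold, and ran from 3.11 to 4.65 with a library left out; the cause was not tested. The vehicle H3K27ac share (90.7%) was 94.8% with 50% overlap, 93.6% with the stricter q, 89.96% with H3K27ac merged over the activin lists, and from 83.4 to 91.3% with a library left out. H3K27ac rank, activin minus vehicle (-5.36), was -2.51 with the stricter q and -7.38 among regions in all 4 lists, and from -7.95 to -4.60 with a library left out. The gap between members and sites with SMAD2/3 kept its direction under these alternatives. For FOXL2 (-8.89) it ran from -9.59 to -8.35 with a library left out and was -13.9 among regions in all 4 lists. For H3K27ac (-13.1) it ran from -14.6 to -12.6 with a library left out, and was -6.65 with the stricter q and -20.0 among regions in all 4 lists. Replicates shared a number only: their deviations correlated at 0.13 for FOXL2 and -0.028 for H3K27ac. With the replicate block, 26.1% of members ranked higher with activin in both pairs and 47.5% with vehicle, and the exact sign-flip p of both gaps was 0.5, its minimum. The forkhead core occurred in 15.2% of the 33 windows that fit with 100 bp on either side, against 18.3%.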
